A study of Mus musculus with 12 samples.

Results

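Pdgfrb, Pdgfra, Pdgfa, Pdgfb, Gata3, Des, Cspg4 and Rgs5 form a set of 8 genes that mark mesangial cells and pericytes or belong to platelet-derived growth factor (PDGF) signalling. They were found by symbol among the 26264 genes counted by RNA-seq of glomerulus-enriched kidney tissue and all 8 passed the filter on low counts. The animals were male mice, 8 weeks old when obtained, of 1 of 2 substrains, BALB/cAjcl (Ajcl below) or else BALB/cByJcl (ByJcl below), which descend from the same albino inbred strain. Each substrain was sampled untreated at baseline and at Day 5 after a single intravenous dose of adriamycin (ADR, doxorubicin) of 10 mg/kg, with 3 libraries in each of the 4 groups. The labels name no transgene, all libraries were labelled as 1 batch, and the baseline mice were labelled as untreated. The treatment protocol also mentions saline for controls, so it is not settled here whether the baseline mice were injected. Magnetic beads perfused into the glomerular capillaries were used to collect glomeruli after collagenase digestion, and poly(A) RNA was sequenced. The comparisons asked whether the genes differed between the substrains before and after ADR, and whether they changed with ADR in either substrain.

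PDGF ligands are dimers that bring pairs of receptor tyrosine kinases together at the cell surface. In the developing glomerulus, endothelial cells release PDGF-B, and mesangial precursors carrying the receptor encoded by Pdgfrb are drawn into the capillary tuft. The same pair recruits pericytes, the mural cells of small vessels, elsewhere in the body. PDGF-A acts through the receptor encoded by Pdgfra, which in the kidney is best known from fibroblasts and other interstitial cells. The remaining genes label the cells that respond: Gata3 encodes a transcription factor present in mesangial cells, Des an intermediate filament protein of mesangial cells, muscle and injured podocytes, Cspg4 the NG2 proteoglycan of pericytes, and Rgs5 a regulator of G-protein signalling in mural cells.

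The promoters of Pdgfra and Des are shown because Pdgfra varied most among the 8 genes and Des had higher fitted levels after ADR in both substrains, although neither difference passed the test described below. Each sequence runs 5′ to 3′ from 250 bases before to 50 bases after the RefSeq transcription start in GRCm38.p6, at chr5:75152001-75152300 on the + strand for Pdgfra and at chr1:75360042-75360341 on the + strand for Des. Capitals mark matches to the E-box CANNTG, a palindromic letter pattern bound by basic helix-loop-helix factors.
Pdgfra: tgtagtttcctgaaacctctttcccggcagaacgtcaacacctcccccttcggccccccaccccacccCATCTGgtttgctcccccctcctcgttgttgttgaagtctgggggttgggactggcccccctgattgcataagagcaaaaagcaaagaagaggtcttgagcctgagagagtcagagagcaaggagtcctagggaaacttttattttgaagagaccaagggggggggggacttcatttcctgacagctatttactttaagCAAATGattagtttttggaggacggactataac
Des: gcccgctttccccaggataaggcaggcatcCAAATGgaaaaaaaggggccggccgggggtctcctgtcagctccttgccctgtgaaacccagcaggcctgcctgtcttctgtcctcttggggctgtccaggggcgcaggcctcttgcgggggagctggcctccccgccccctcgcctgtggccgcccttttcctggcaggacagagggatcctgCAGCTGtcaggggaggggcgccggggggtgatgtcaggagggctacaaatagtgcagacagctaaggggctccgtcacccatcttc

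The Pdgfra window held E-boxes CATCTG and CAAATG with their first bases at -182 and 18 from the start site, and the Des window held CAAATG and CAGCTG at -220 and -36. Promoters on chromosome 18, where Pdgfrb lies, were left out of the search and of the shares of all promoters below. Of the 8 genes, 6 had an entry among the rest, with 2 entries for Pdgfa, which gave 7 promoters. An E-box was found in 4 of the 7, also in the Rgs5 and Gata3 promoters, against 72.3% of 32851 promoters of the same length. The GC box GGGCGG, searched on both strands, was found in 5 of the 7 promoters against 35.7% of all promoters. TATAAA and the CArG box, also searched on both strands, were found in 0 of the 7, against 13.6% and 1.63% of all promoters. These matches describe letters in the windows and are not evidence of binding.

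Total counts lay between 42198416 and 54687045 per library. The first Ajcl library after ADR was left out of the fit for reduced glomerular purity, a choice taken from the study. It had the highest summed levels of the proximal tubule markers, 9180 CPM, and of the distal nephron and collecting duct markers, 2131 CPM. Levels (CPM) are edgeR's CPM, counts relative to a library's total, after TMM scaling, which adjusts totals for composition, and changes are log2 fold changes with their SE. Calls are genes with an adjusted p below 0.05 in the quasi-likelihood test of edgeR, adjusted by Benjamini and Hochberg's method over 17002 tested genes. The p-values measure the spread between libraries, and with 2 Ajcl libraries at Day 5 that spread is shared across all groups. Podocyte markers were abundant in every group, with sums of 10107 to 23956 CPM over the 12 listed genes in the 11 fitted libraries, and the 10 listed mesangial markers summed to 2401 to 3964 CPM. In such bulk samples fewer cells of a type and less RNA per cell cannot be told apart.

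None of the 8 genes was called in any of the 5 comparisons, by edgeR or by DESeq2. At an unadjusted p below 0.05, edgeR gave 1 of the 8 between substrains at baseline (Pdgfra), 2 at Day 5 (Pdgfb and Pdgfra), 1 for Day 5 against baseline in Ajcl (Pdgfra), 1 in ByJcl (Des) and 1 for the interaction (Pdgfra). The shares of all 17002 genes at that unadjusted threshold were 8.34%, 14.0%, 9.80%, 26.8% and 8.02% in the same order. Of all tested genes, 0.159% were called by edgeR between substrains at baseline, 0.165% between substrains at Day 5 and 0.312% for Day 5 against baseline in Ajcl. DESeq2 called 0.594%, 3.15% and 1.77% in these 3 comparisons, and edgeR without 1 library at a time called 12 to 29, 9 to 218 and 11 to 180 genes. In ByJcl, 10.6% of the tested genes were called at Day 5 against baseline, and the 8 genes contributed 0 of these 1800 genes, and 0 of the 15.8% called there by DESeq2. For the interaction 0% of genes were called by edgeR, with 1363 genes at an unadjusted p below 0.05 and 22 called by DESeq2. The median log2 fold change of the 8 genes was 0.17 between substrains at baseline, 0.14 at Day 5, 0.0035 in Ajcl after ADR and -0.064 in ByJcl after ADR. The medians over all tested genes in these comparisons were 0.0084, 0.0019, -0.0091 and 0.0066.

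**Figure D1:**
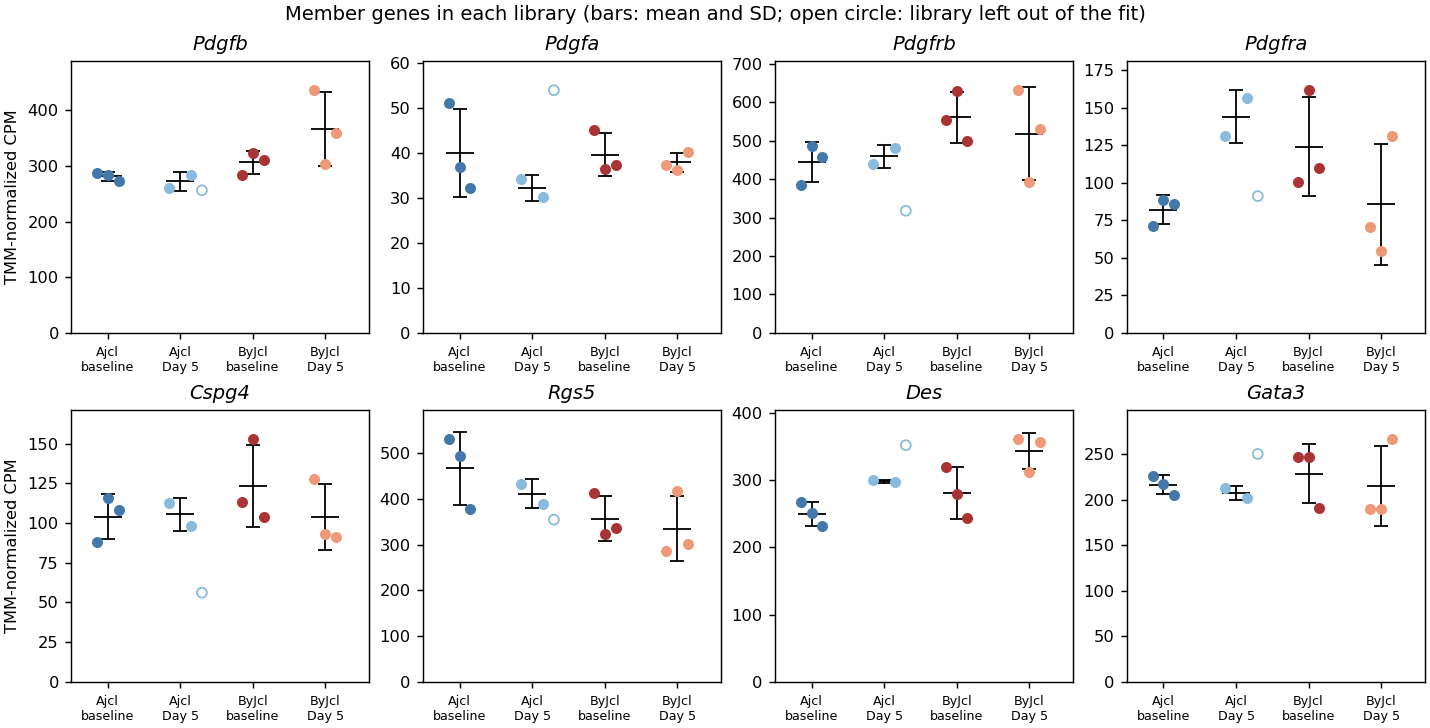
TMM-normalized CPM (y axis, from 0) of each of the 8 genes in every library by group, with the mean and SD of the fitted libraries and the left-out Ajcl Day 5 library as an open circle. Pdgfra spans 54.7 to 161.6 CPM over the fitted libraries, while Gata3 spans 189.3 to 266 CPM and its groups overlap throughout.

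Pdgfb, on chromosome 15 (79880009 to 79899181, - strand, GRCm39, GENCODE vM39), encodes the ligand that endothelial cells supply to mesangial cells. Its levels at baseline were 287, 284 and 273 CPM in Ajcl and 284, 324 and 312 CPM in ByJcl. At Day 5 they were 261 and 284 CPM in the fitted Ajcl libraries, 256 CPM in the left-out library, and 436, 303 and 360.0 CPM in ByJcl. The Day 5 groups did not overlap, with or without the left-out library, and each ByJcl library was the higher. The fitted difference at Day 5 was 0.46 ± 0.15 (SE; 95% confidence interval 0.13 to 0.79), a fold of 1.37, with an adjusted p of 0.239 by edgeR's quasi-likelihood test. DESeq2 gave an adjusted p of 0.0818, and the 12-library fit by edgeR gave 0.49 with an adjusted p of 0.121. Leaving out 1 library at a time gave 0.29 to 0.58 for this difference, the ends being without ByJcl Day 5 replicate 1, the highest library, and replicate 2, the lowest ByJcl library at Day 5. Within ByJcl the Day 5 and baseline libraries overlapped, with a difference of 0.29 ± 0.13 (edgeR adjusted p = 0.193), and within Ajcl the difference was -0.028 ± 0.15 (edgeR adjusted p = 0.969). Without the same libraries the ByJcl change ranged from 0.13 to 0.41. The interaction was 0.32, with an interval of -0.12 to 0.76 that includes 0, and ranged from 0.17 to 0.44 without 1 library at a time. At baseline the substrains differed by 0.14 ± 0.13, with overlapping libraries.

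Pdgfa, on chromosome 5 (138961758 to 138983435, - strand), encodes the ligand that forms PDGF-AA. It was the least abundant of the 8 genes, at 51.1, 36.9 and 32.3 CPM in Ajcl and 45.2, 36.6 and 37.3 CPM in ByJcl at baseline. At Day 5 it was at 34.3 and 30.1 CPM in the fitted Ajcl libraries and at 37.3, 36.3 and 40.3 CPM in ByJcl. The Day 5 groups did not overlap in the fitted libraries, but the left-out Ajcl library stood at 54.0 CPM, above every other library, and with it they did. The fitted Day 5 difference was 0.27 ± 0.18 (edgeR adjusted p = 0.539) and became -0.027 over the 12 libraries. At baseline the difference was 0.0058 ± 0.16, with an interval of -0.35 to 0.36. After ADR it was -0.30 ± 0.18 in Ajcl and -0.040 ± 0.16 in ByJcl, neither called. The Ajcl change ranged from -0.44 to -0.10 without 1 library at a time and was -0.019 over the 12 libraries.

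Pdgfrb, on chromosome 18 (61178212 to 61218133, + strand), encodes the receptor for PDGF-B and is carried by mesangial cells and pericytes. Its baseline levels were 385, 487 and 459 CPM in Ajcl and 553, 629 and 499 CPM in ByJcl, so every ByJcl library was above every Ajcl library. The difference was 0.36 ± 0.18, a fold of 1.28 with an interval of 0.98 to 1.67 (edgeR adjusted p = 0.606). At Day 5 the values were 439 and 481 CPM in the fitted Ajcl libraries, 318 CPM in the left-out library, and 631, 392 and 531 CPM in ByJcl. These Day 5 groups overlapped, and ByJcl replicate 2 lay below both fitted Ajcl libraries. The Day 5 difference was 0.20 ± 0.20 (edgeR adjusted p = 0.668). Leaving out 1 library at a time gave 0.0060 to 0.37 at Day 5, the ends being without ByJcl Day 5 replicate 1 and replicate 2, and 0.23 to 0.44 at baseline, the ends being without Ajcl baseline replicate 1 and replicate 2. Day 5 against baseline gave 0.070 ± 0.20 in Ajcl and -0.084 ± 0.17 in ByJcl, and the Ajcl value turned to -0.10 over the 12 libraries. The intervals of these treatment effects, -0.36 to 0.50 and -0.47 to 0.30, include changes of either sign.

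Pdgfra, on chromosome 5 (75311994 to 75358876, + strand), encodes the receptor that binds PDGF-AA and other PDGF dimers. Its highest level was 2.95 times its lowest over the 11 fitted libraries, against 1.41 to 1.85 times for the other 7 genes. At baseline it stood at 71.0, 88.8 and 86.1 CPM in Ajcl and at 100.5, 161.6 and 110.1 CPM in ByJcl. Every ByJcl library was the higher. At Day 5 it stood at 131 and 156 CPM in the fitted Ajcl libraries and at 70.6, 54.7 and 131 CPM in ByJcl. The order of the substrains was therefore turned around at Day 5, and ByJcl replicate 3, at 131.2 CPM, lay just below the lower of the fitted Ajcl libraries, at 131.4 CPM. The left-out Ajcl library, at 91.1 CPM, was above all 3 baseline Ajcl libraries and between the ByJcl Day 5 libraries, so with it the Day 5 substrain groups overlapped.

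The fitted difference of Pdgfra between substrains was 0.61 ± 0.28 at baseline (95% interval 0.0037 to 1.22, edgeR adjusted p = 0.595) and -0.73 ± 0.31 at Day 5 (interval -1.40 to -0.059, edgeR adjusted p = 0.326). Day 5 against baseline gave 0.83 ± 0.30 in Ajcl, a fold of 1.78 (edgeR adjusted p = 0.364), and the Ajcl groups did not overlap with or without the left-out library. In ByJcl it gave -0.51 ± 0.28, a fold of 0.702 (edgeR adjusted p = 0.267), and the groups overlapped because replicate 3 at Day 5 exceeded 2 of the 3 baseline libraries. Without that library the ByJcl change was -0.92 with an edgeR adjusted p of 0.0263, the only call of any of the 8 genes under any setting tried. Without ByJcl Day 5 replicate 2 it was -0.27, so single libraries set its size. Leaving out 1 library at a time gave 0.39 to 0.73 for the baseline difference, lowest without ByJcl baseline replicate 2. For the Day 5 difference it gave -1.15 to -0.49, the ends being without ByJcl Day 5 replicate 3 and replicate 2. The difference between the substrains' treatment effects was -1.34 ± 0.41 (interval -2.25 to -0.44). Its unadjusted p by edgeR's quasi-likelihood test was 0.00754, its adjusted p was 0.620, and DESeq2 gave an adjusted p of 0.176. Over the 12 libraries the value was -1.13. The fitted changes of Pdgfra after ADR thus had opposite signs in the substrains, and their difference did not pass the test over all genes.

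**Figure D2:**
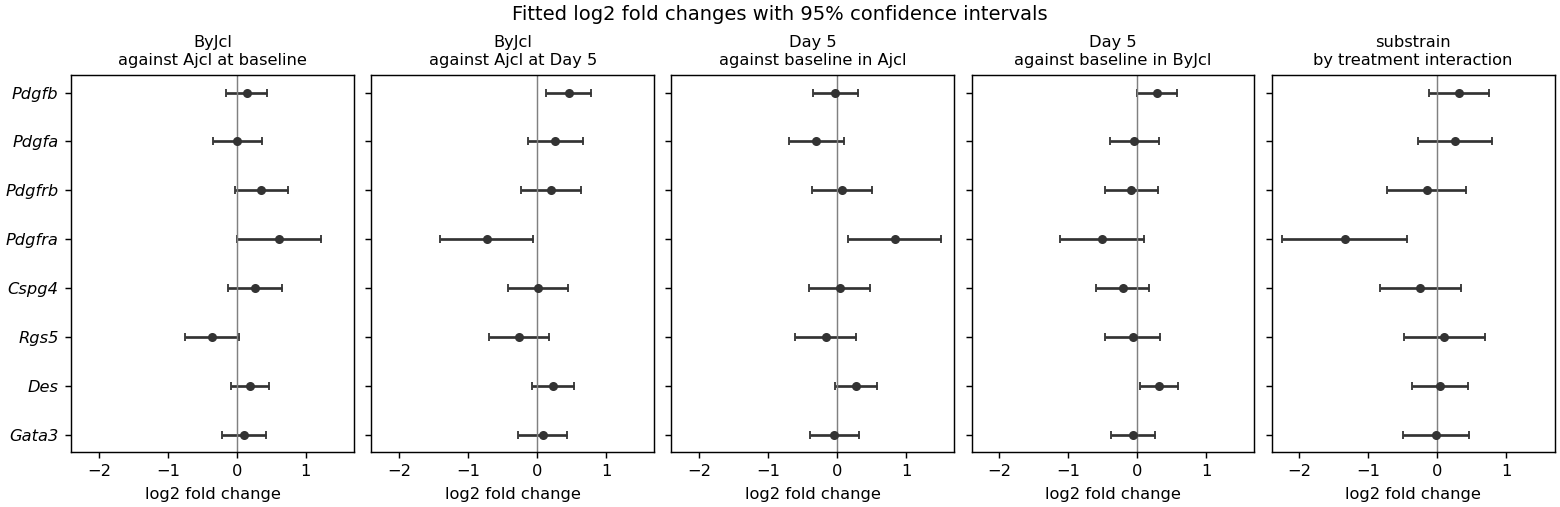
Fitted log2 fold changes (x axis) of the 8 genes (y axis, ordered by role) in the 5 comparisons, with points for edgeR estimates and lines for 95% confidence intervals. Pdgfra has the point farthest from 0 in each of the 5 comparisons, from -1.34 for the interaction to 0.83 for Day 5 against baseline in Ajcl.

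Des, on chromosome 1 (75320511 to 75345223, + strand), encodes desmin. At baseline it was at 267, 251 and 232 CPM in Ajcl and at 320.1, 279.9 and 243 CPM in ByJcl. At Day 5 it was at 300.3 and 297 CPM in the fitted Ajcl libraries, 352 CPM in the left-out library, and 361, 312 and 356 CPM in ByJcl. In Ajcl the Day 5 libraries were all above the baseline libraries, with or without the left-out one. In ByJcl the groups overlapped, because the highest baseline library exceeded the lowest Day 5 library. Day 5 against baseline gave 0.28 ± 0.14 in Ajcl (fold 1.21, edgeR adjusted p = 0.563) and 0.31 ± 0.12 in ByJcl (fold 1.24, interval 1.03 to 1.50, edgeR adjusted p = 0.131). DESeq2 gave an adjusted p of 0.0686 for the ByJcl change. The interaction for Des was 0.038 with an interval of -0.37 to 0.44, which covers both a smaller and a larger response in ByJcl than in Ajcl. Between substrains Des differed by 0.19 ± 0.12 at baseline and 0.23 ± 0.14 at Day 5, where the fitted groups did not overlap and the groups with the left-out library did. Leaving out 1 library at a time gave 0.071 to 0.29 for the baseline difference of Des, the ends being without ByJcl baseline replicate 1 and replicate 3. Des is also known from injured podocytes, and the podocyte markers fell in ByJcl at Day 5, as given below. The part of podocytes in the Des values was not tested.

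Cspg4, on chromosome 9 (56772317 to 56807187, + strand), encodes the NG2 proteoglycan of pericytes. It was at 88.2, 115.6 and 108 CPM in Ajcl and 113, 153 and 104 CPM in ByJcl at baseline. At Day 5 it was at 113 and 98.2 CPM in the fitted Ajcl libraries, 56.2 CPM in the left-out library, and 128, 93.2 and 90.9 CPM in ByJcl. The groups overlapped in all 4 pairwise comparisons. The largest of the 4 pairwise differences was 0.26 ± 0.18 between substrains at baseline (edgeR adjusted p = 0.666). It ranged from 0.094 to 0.37 when 1 library at a time was left out, the ends being without ByJcl baseline replicate 2 and replicate 3. The left-out library had the lowest Cspg4 and the lowest Pdgfrb of the 12, together with the highest tubular sums.

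Rgs5, on chromosome 1 (169483036 to 169524887, + strand), encodes a regulator of G-protein signalling that marks pericytes and other mural cells. It was at 530.4, 493 and 377 CPM in Ajcl and 412, 323 and 336 CPM in ByJcl at baseline. At Day 5 it was at 434 and 389 CPM in the fitted Ajcl libraries, 355 CPM in the left-out library, and 286, 418 and 302 CPM in ByJcl. It was the only one of the 8 genes with a lower fitted level in ByJcl at both time points, by -0.37 ± 0.18 at baseline (edgeR adjusted p = 0.606) and -0.27 ± 0.20 at Day 5 (edgeR adjusted p = 0.567). Leaving out 1 library at a time gave -0.51 to -0.29 at baseline and -0.45 to -0.18 at Day 5, so the sign held in each of these fits. The groups overlapped at both times. After ADR the differences were -0.17 ± 0.20 in Ajcl and -0.067 ± 0.18 in ByJcl. The Ajcl value ranged from -0.30 to -0.080 without 1 library at a time.

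Gata3, on chromosome 2 (9861889 to 9894845, - strand), encodes a zinc finger transcription factor of mesangial cells that collecting duct cells also use. It was at 226, 218 and 205 CPM in Ajcl and 247, 247 and 191 CPM in ByJcl at baseline, and at 213 and 202 CPM in Ajcl and 190.2, 189.3 and 266 CPM in ByJcl at Day 5. It had the narrowest range of the 8 genes, and all its groups overlapped. Its fitted differences were 0.098 and 0.081 between substrains and -0.044 and -0.060 after ADR, each smaller than its SE of 0.14 to 0.16. In the left-out library Gata3 stood at 250.2 CPM, and the distal nephron and collecting duct sum in that library was the highest of all. The part of those cells in the Gata3 values was not tested. GENCODE vM39 places genes on the opposite strand over parts of Gata3, Des, Pdgfa, Pdgfb and Pdgfra. The libraries were strand-specific, but the strand setting of the counting is not given, so it is not known whether antisense reads were kept apart.

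Groups that do not overlap are frequent with so few libraries, so the counts of separated genes are given with the background. Between substrains at baseline, 2 of the 8 genes (Pdgfrb and Pdgfra) had groups without overlap, against 14.5% of all tested genes. At Day 5, 4 of the 8 (Pdgfb, Pdgfa, Des and Pdgfra) did, against 32.3%. With all 12 libraries, 1 of the 8 (Pdgfb) remained separated at Day 5, against 18.8%. For Day 5 against baseline in Ajcl, 2 of the 8 (Des and Pdgfra) were separated, against 25.6% with 11 libraries and 13.2% with 12. In ByJcl, 0 of the 8 were separated, against 33.6%.

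Levels per kilobase of merged exons, which allow genes to be compared, ordered the 8 genes as Pdgfb (72.9 ± 11.8 CPM per kb, SD over 11 libraries), Rgs5 (63.6 ± 12.6), Pdgfrb (61.6 ± 10.2), Des (56.9 ± 8.39), Gata3 (47.8 ± 5.75), Cspg4 (9.16 ± 1.56), Pdgfra (8.59 ± 2.90) and Pdgfa (5.62 ± 0.866). Only the step from Gata3 to Cspg4 separated neighbours in every one of the 11 libraries. Pdgfb was above Rgs5 in 7 libraries, Rgs5 above Pdgfrb in 6, Pdgfrb above Des in 7, and Des above Gata3 in 10. Cspg4 was above Pdgfra in 6 libraries and Pdgfra above Pdgfa in 9. The set therefore fell into 5 genes of similar abundance per length, among them the PDGF-B ligand and its receptor, and 3 genes of lower abundance, among them the PDGF-A ligand and Pdgfra. With the length of the longest transcript in place of merged exons, Des moved to rank 2 and Rgs5 to rank 4, and Pdgfra moved above Cspg4 to rank 6. The exons come from GENCODE vM39, and the annotation behind the counts is not given in the sources used here.

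**Figure D3:**
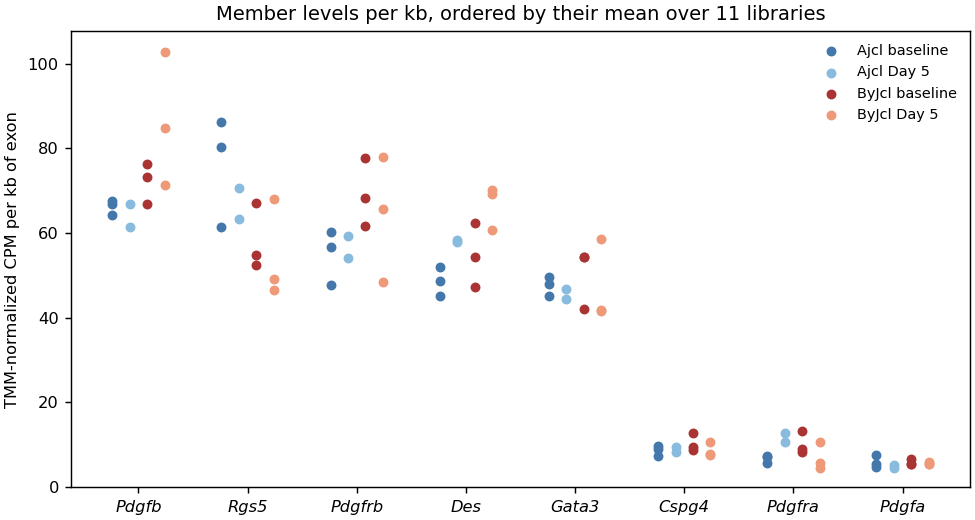
TMM-normalized CPM per kb of merged exon (y axis, from 0) of the 8 genes (x axis, ordered by the mean over 11 libraries), with 1 point per fitted library coloured by group. The lowest Gata3 library is at 41.6 CPM per kb and the highest Cspg4 and Pdgfra libraries are at 12.8 and 13.1, so the step between the abundant and the sparse genes is clear in each library.

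Ratios within a library follow the balance of ligands and receptors without the library's scaling. The ratio of Pdgfrb to Pdgfra per kb was 8.25, 8.34 and 8.09 in the baseline Ajcl libraries and 5.07 and 4.67 in the fitted Day 5 libraries. The left-out Day 5 library had 5.30, so all 3 Ajcl libraries after ADR were below all 3 untreated ones. Pdgfra alone was also separated there with all 12 libraries, as were 13.2% of all tested genes. In ByJcl the ratio was 8.37, 5.92 and 6.89 at baseline and 13.6, 10.9 and 6.15 at Day 5, with overlapping groups. Pdgfrb exceeded Pdgfra per kb in all 12 libraries. The ratio of Pdgfb to Pdgfa was 11.5 ± 2.32 (SD, n = 3) in Ajcl and 12.5 ± 2.18 (n = 3) in ByJcl at baseline, and 13.5 ± 2.06 (n = 2) and 15.4 ± 2.84 (n = 3) at Day 5. It was 7.56 in the left-out Ajcl library, the lowest of all 12. Pdgfb to Pdgfrb, ligand to receptor, was 1.22 ± 0.17 in Ajcl and 1.05 ± 0.12 in ByJcl at baseline and 1.13 ± 0.0047 and 1.36 ± 0.099 at Day 5. The left-out Ajcl library stood at 1.54, above every ByJcl library. In ByJcl each Day 5 library, at 1.29 to 1.48, was above each baseline library, at 0.977 to 1.19. Neither Pdgfb nor Pdgfrb alone was separated in that comparison, where 33.6% of all tested genes were. These ratios were chosen after the levels were known and are given without a test.

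**Figure D4:**
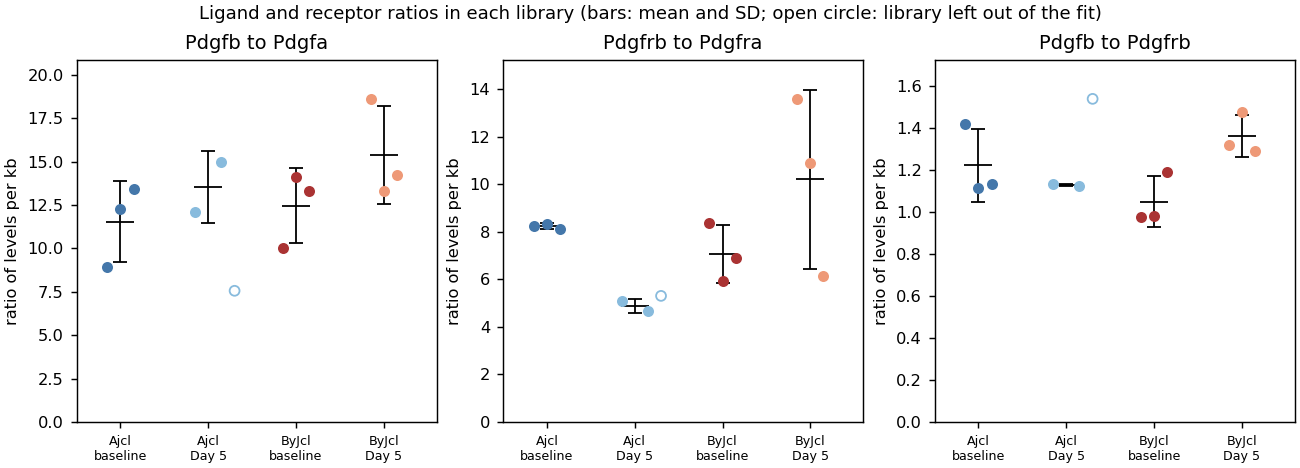
Ratios of levels per kb (y axis, from 0) of Pdgfb to Pdgfa, Pdgfrb to Pdgfra and Pdgfb to Pdgfrb in every library by group, with mean and SD of the fitted libraries and the left-out library as an open circle. Pdgfrb to Pdgfra is 8.09 to 8.34 in baseline Ajcl and 4.67 to 5.30 in Ajcl at Day 5, and it spreads from 6.15 to 13.6 in ByJcl at Day 5.

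Across the 11 libraries Pdgfrb varied most like Tcirg1, Nrxn3 and Nid1 (Pearson's r of log2 levels 0.945, 0.936 and 0.933), and Pdgfra most like Acacb, Gpr137c and Pcnx (0.932, 0.927 and 0.904). The genes most like Pdgfb were Shisa5, Tgfb1 and Ssbp4 (0.948, 0.941 and 0.930), and those most like Pdgfa were Znrd1, Atf1 and Emc3 (0.946, 0.917 and 0.913). Des was most like Nub1, Tppp3 and Ifi204 (0.936, 0.916 and 0.910), and Gata3 most like Sox7, Sox17 and Msl3l2 (0.894, 0.876 and 0.847). For Cspg4 the genes were Cul7, Supt5 and 5930430L01Rik (0.946, 0.921 and 0.903), and for Rgs5 they were Zfp708, Map2 and Mafa (0.960, 0.933 and 0.915). These values are descriptions over 11 libraries of 4 groups, which share substrain, treatment and scaling, and the top genes of so many candidates are high by selection. None of the 24 is one of the 8 genes. Among the 8 genes, Pdgfrb went with Cspg4 (r = 0.746, and 0.742 within groups) and Pdgfb (0.630 and 0.775). Rgs5 went against Pdgfrb (-0.743, and -0.699 within groups) and Pdgfb (-0.759 and -0.652). These pairs had the largest r in size among all pairs of the 8 genes and are also high by selection. Pdgfb with Des followed (0.609, and 0.238 within groups). Within groups Pdgfra with Gata3 (0.672) and Pdgfa with Des (0.669) were of like size.

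The wider PDGF pathway was followed with a list of 35 genes of further ligands, adaptors, kinases, phosphatases and transcription factors, all 35 tested. For Day 5 against baseline in ByJcl, 3 rose and 1 fell by edgeR, beside the 10.6% of all genes called, and the median of the list was -0.00038. Without 1 library at a time this count of 4 ranged from 2 to 5, and it was 2 without ByJcl baseline replicate 1 or ByJcl Day 5 replicate 2. Stat3, which acts downstream of cytokine receptors, rose by 0.58 ± 0.12 (edgeR adjusted p = 0.0147), and Ptpn2, a tyrosine phosphatase, by 0.54 ± 0.13 (edgeR adjusted p = 0.0232). Fyn, a Src-family kinase that also phosphorylates nephrin in podocytes, fell by 0.57 ± 0.11 (edgeR adjusted p = 0.00971). These 3 genes serve many receptors besides those for PDGF. In the 12-library fit Stat3 had an adjusted p of 0.0811 by edgeR, and Ptpn2 and Fyn stayed called.

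In the other 4 comparisons 0 of the 35 pathway genes were called by edgeR, with 3, 5, 4 and 2 at an unadjusted p below 0.05 between substrains at baseline, at Day 5, in Ajcl after ADR and for the interaction. These are 8.57%, 14.3%, 11.4% and 5.71% of the list, beside 8.34%, 14.0%, 9.80% and 8.02% of all genes. DESeq2 called 0, 0, 1 and 0 of them, and 5 in ByJcl after ADR, which is 14.3% of the list beside 15.8% of all genes. The remaining ligand genes were not called. Pdgfc, which encodes a ligand for the Pdgfra receptor, was at 58.0, 47.3 and 48.8 CPM at baseline and 39.1, 18.6 and 40.0 CPM at Day 5 in ByJcl. The groups did not overlap, and the difference was -0.63 ± 0.24 (edgeR adjusted p = 0.112). In Ajcl Pdgfc was at 62.6, 53.0 and 52.7 CPM before and 54.0 and 51.2 CPM after ADR in the fitted libraries (-0.074 ± 0.26). Pdgfd, which encodes a ligand for the Pdgfrb receptor, gave -0.35 ± 0.17 in Ajcl and -0.32 ± 0.15 in ByJcl after ADR (edgeR adjusted p = 0.551 and 0.202).

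Further markers of the same cells were followed by list. Of 10 mesangial markers, 1 rose in ByJcl after ADR by edgeR, beside 10.6% of all genes called: Serpine2, which encodes a protease inhibitor, was at 528, 509 and 489 CPM at baseline and 909, 862 and 971 CPM at Day 5 (0.87 ± 0.12, edgeR adjusted p = 0.00285). In Ajcl it was at 514, 447 and 409 CPM before and 507 and 606 CPM after ADR in the fitted libraries (0.31 ± 0.14, not called). Itga8, an integrin subunit of mesangial cells, gave 0.13 ± 0.18 in Ajcl and 0.097 ± 0.17 in ByJcl after ADR. Of 14 pericyte and mural markers, 1 was higher in ByJcl at Day 5 by edgeR, beside 0.165% of all genes called. The fitted differences of that list were above 0 for 10 genes and below 0 for 4, with a median of 0.13. The called gene was Mcam, an adhesion molecule of endothelial and mural cells, at 292, 289.7 and 304 CPM against 155 and 185 CPM in Ajcl (0.82 ± 0.13, edgeR adjusted p = 0.0474). Of 8 tested smooth muscle and renin cell markers, Tagln, which encodes transgelin, rose in ByJcl after ADR by 1.31 ± 0.16 (edgeR adjusted p = 0.00163), from 107 to 159.8 CPM to 286 to 349.5 CPM. It was also higher in ByJcl at Day 5 by 1.15 ± 0.18 (edgeR adjusted p = 0.0436, and 0.0599 over the 12 libraries). Mylk, the myosin light chain kinase, fell in ByJcl by 0.44 ± 0.12 (edgeR adjusted p = 0.0432). The Day 5 calls between substrains were fragile. Both were lost with the replicate number as a block, which also left 1 of the 2 smooth muscle calls in ByJcl. Without 1 library at a time the Mcam call was lost in 8 of 11 fits and the Tagln call in 9, and 1 of the 2 smooth muscle calls in ByJcl was lost in 6. Without ByJcl Day 5 replicate 2, 1 pericyte and mural gene was called in ByJcl after ADR. The list medians in ByJcl after ADR were 0.14 for the mesangial, -0.057 for the pericyte and 0.11 for the smooth muscle list, beside 0.0066 over all genes.

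Of 12 podocyte markers, 11 fell in ByJcl after ADR by edgeR with a list median of -1.32, among them Magi2 (-2.38), Thsd7a (-2.67), Synpo (-1.54) and Plce1 (-1.36), and 1, Cdkn1c, rose by 1.01. The podocyte sum in ByJcl went from 21550 to 23956 CPM at baseline to 10107 to 13804 CPM at Day 5, and in Ajcl from 16955 to 22984 CPM at baseline to 12989 to 18119 CPM in the fitted Day 5 libraries. Of 9 tested fibroblast markers, Col1a2, a collagen chain that mesangial cells also make, fell by 2.16 ± 0.24 in ByJcl (edgeR adjusted p = 0.0012). Its levels were 508, 439 and 442 CPM at baseline and 139, 80.1 and 85.8 CPM at Day 5. In Ajcl they were 377, 542 and 404 CPM and then 234 and 161 CPM in the fitted libraries (-1.15 ± 0.27, edgeR adjusted p = 0.136). Lum and Mfap5, fibroblast genes, and Ren1 were too low to test, and Ren1 reached at most 11 counts. The fibroblast sum was 901 to 1107 CPM at baseline in Ajcl and 1044 to 1100.5 CPM in ByJcl, and 720 to 824 CPM and 483 to 765 CPM at Day 5. In baseline Ajcl, Pi16 and Col1a2 had means of 545 and 441 CPM, and the next highest gene, Col1a1, 13.0 CPM. The sum thus mainly follows Pi16 and Col1a2 and is not a measure of fibroblast content. Ehd3 and Flt1 fell among 12 endothelial markers in ByJcl (-0.81 and -0.54), and Cd68 rose among 7 macrophage markers (1.17), by edgeR and beside 10.6% of all genes called. The fitted values of both lists had either sign, with 5 endothelial markers above 0 and 7 below (list median -0.071) and 3 macrophage markers above 0 and 4 below (list median -0.39). The endothelial count was 0 with all 12 libraries, 1 with RLE size factors or the replicate block and 4 with DESeq2, which also called 3 pericyte and mural genes and 2 macrophage genes there. Over all genes DESeq2 called 15.8% in ByJcl after ADR. Without 1 library at a time the endothelial count ranged from 0 to 2 and the macrophage count from 0 to 2. No proximal tubule, distal nephron or platelet marker was called by edgeR in the fit of 11 libraries. Without ByJcl baseline replicate 1, 1 proximal tubule marker was called in ByJcl after ADR, and DESeq2 called 1 distal nephron and collecting duct gene between substrains at Day 5. In that comparison DESeq2 also called 1 mesangial, 2 pericyte and mural, 1 smooth muscle, 2 fibroblast, 2 podocyte and 1 macrophage gene. Over all genes DESeq2 called 3.15% there. With all 12 libraries edgeR called 1 mesangial gene, beside 72 over all genes. Without Ajcl Day 5 replicate 3, edgeR called genes of the podocyte, macrophage, mesangial, pericyte and smooth muscle lists at Day 5. That fit left Ajcl 1 library at Day 5, so its counts are not given. The list medians between substrains were nevertheless below 0, at -0.77 and -1.20 at baseline and -0.92 and -1.39 at Day 5 for the proximal and distal lists. The proximal sums at baseline overlapped, at 1957 to 6250 CPM in Ajcl and 639 to 3588 CPM in ByJcl, and they also overlapped at Day 5. The distal sums overlapped at baseline but not in the fitted Day 5 libraries. The part of tubular or podocyte RNA in the values of the 8 genes was not tested. In Ajcl after ADR and for the interaction, 0 genes of any of these lists were called by edgeR in the fit of 11 libraries. With all 12 libraries, or without a filter, edgeR called 1 podocyte gene in Ajcl. Without Ajcl Day 5 replicate 2, which left 1 library in that group, it called genes of the podocyte and PDGF pathway lists in Ajcl. Without ByJcl Day 5 replicate 1 it called 1 fibroblast gene there. DESeq2 called 3 podocyte genes and 1 fibroblast gene in Ajcl, beside 1.77% of all genes. For the interaction DESeq2 called 1 podocyte gene, beside 0.129% of all genes.

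**Figure D5:**
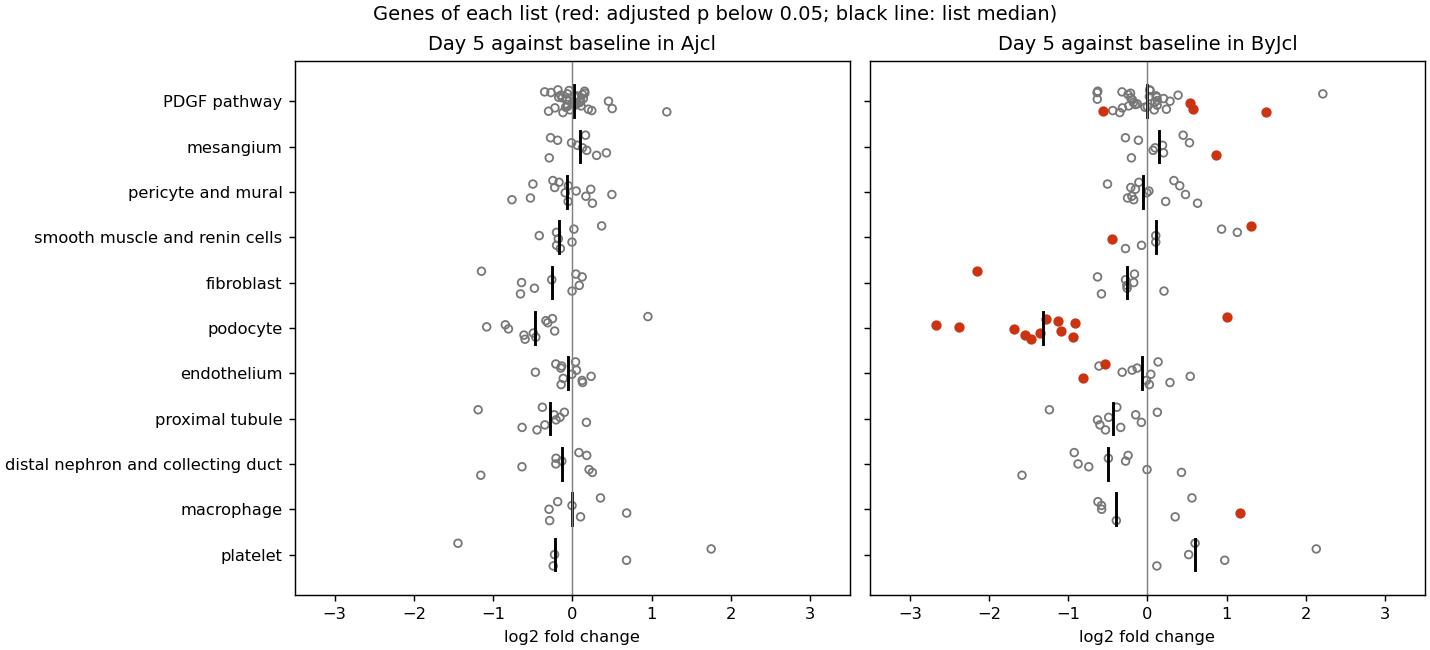
Log2 fold changes (x axis) of the genes of each list (y axis) for Day 5 against baseline in Ajcl (left) and ByJcl (right), with red points for genes called by edgeR and a black line at each list's median. The podocyte genes in ByJcl lie to the left with a median of -1.32, and the mesangial, pericyte and PDGF pathway lists have medians of 0.14, -0.057 and -0.00038 in the same comparison. In Ajcl no point is red in this fit of 11 libraries.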

How the data were processed

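RNA-seq of glomerulus-enriched tissue was available for 12 libraries, with 3 in each combination of substrain and time. Reads were trimmed with Trimmomatic, aligned to GRCm39 with STAR and summarised per gene with featureCounts, and the authors deposited whole-number counts per gene without normalization or pooling. The gene annotation and strand setting are not given in the sources used here. The baseline and Day 5 counts were held in separate tables, so ADR effects cannot be told apart from differences in how the tables were made. Between 77.1% and 82.9% of counts from 1 to 49 were even numbers in each library, and halving all counts was therefore tried.

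Counts of 11 libraries, without Ajcl Day 5 replicate 1, were analysed in R 4.3.3 with edgeR 4.0.16: filterByExpr left 17002 genes, TMM scaled the libraries, and a quasi-likelihood model with 1 coefficient per group (7 residual degrees of freedom, common dispersion 0.0521) was used to test 5 contrasts, with Benjamini-Hochberg adjustment and a threshold of 0.05. Errors are SE for fold changes and SD for levels, and confidence intervals cover 95%. Alternatives were DESeq2 1.42.0, RLE size factors, no filter, a filter of 1 CPM in 3 libraries, all 12 libraries, the replicate number as a block, halved counts and leaving out each library.

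The 8 genes and the gene lists were chosen with earlier results of these data known. The text names the 8 genes, every listed gene called in a comparison (at most 5 per list) and, for each of the 8, the 3 genes with the highest Pearson correlation of log2 CPM with a prior count of 2. Pdgfc, Pdgfd and Itga8 were named after their values were seen. Some genes that this rule names are not reported here. Lengths and coordinates come from GENCODE vM39 on GRCm39, and promoter sequences from RefSeq on GRCm38.p6. Figures were drawn with Python 3.11.15 and matplotlib 3.10.9.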

Additional observations from a re-analysis of the deposited data

Results flagged for a closer look

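Ajcl Day 5 replicate 1, the library left out of the comparisons for reduced glomerular purity, was above all 6 untreated libraries for 3 of the 8 genes. Des stood there at 352 CPM, against at most 320.1 CPM in untreated libraries. Pdgfa stood at 54.0 CPM against at most 51.1 CPM, and Gata3 at 250.2 CPM against at most 247 CPM. The SD between untreated libraries was 9.79 CPM in Ajcl and 4.77 CPM in ByJcl for Pdgfa, and 10.4 CPM and 32.4 CPM for Gata3. The same library was below all 6 untreated libraries for Pdgfrb, Pdgfb and Cspg4. It held 318, 256 and 56.2 CPM of them, against a lowest untreated 385, 273 and 88.2 CPM. The share of all genes outside the untreated range in that library was not computed. These differences of a single library were not tested.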

How the results depend on the processing

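Of 40 results (8 genes in 5 comparisons), 18 changed sign under some setting, and none of these was larger than 0.27 in size in the fit of 11 libraries; the cause was not tested. For Pdgfa between substrains at baseline the value was -0.0087 with DESeq2, -0.0087 with RLE size factors, -0.0050 without a filter, -0.020 with 12 libraries and -0.0039 with halved counts. With all 12 libraries the Day 5 differences were -0.027 (Pdgfa) and -0.016 (Gata3), the Ajcl changes -0.10 (Pdgfrb), 0.038 (Gata3) and -0.22 (Cspg4), and the interactions 0.033 (Pdgfrb), -0.0067 (Pdgfa), -0.017 (Des) and 0.026 (Cspg4). The Gata3 interaction was 0.0047 with DESeq2 and 0.0047 with RLE size factors. Among all tested genes, DESeq2 called 101, 535 and 301 between substrains at baseline, at Day 5 and in Ajcl after ADR, and 22 for the interaction. Without a filter 56 were called at Day 5 and 99 in Ajcl. With 12 libraries 72 were called at Day 5 and 1197 in ByJcl.

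Whether the replicate numbers pair the libraries is not settled. The correlation of deviations of same-numbered libraries ran from -0.238 to 0.374, and libraries of different numbers were not compared. With the replicate block 26 genes were called in Ajcl, 0 of the 8 genes were called in any comparison, the Pdgfb change in Ajcl was 0.010 and the Des interaction -0.027. Leaving out 1 library at a time gave 12 to 29 genes called between substrains at baseline, 9 to 218 at Day 5, 11 to 180 in Ajcl, 680 to 2056 in ByJcl and 0 to 5 for the interaction. Of the 8 genes, 0 to 1 were called in ByJcl and 0 in the other comparisons. The fold changes that turned sign in some of these fits ranged from -0.14 to 0.19 (Pdgfa) between substrains at baseline, and from -0.083 to 0.17 (Gata3) and -0.19 to 0.12 (Cspg4) at Day 5. In Ajcl they ranged from -0.043 to 0.16 (Pdgfrb), -0.14 to 0.045 (Pdgfb) and -0.087 to 0.14 (Cspg4), and in ByJcl from -0.26 to 0.086 (Pdgfrb), -0.11 to 0.080 (Pdgfa), -0.21 to 0.026 (Gata3) and -0.25 to 0.065 (Rgs5). The interactions ranged from -0.32 to 0.015 (Pdgfrb), -0.15 to 0.069 (Gata3), -0.059 to 0.16 (Des) and -0.086 to 0.24 (Rgs5). An arm left with 1 library was assumed to vary like the other groups. The lowest count of any of the 8 genes in a library was 1515. Since most low counts are even, each read of a pair may have been counted, and this and the total counts may then exceed the number of fragments by a factor of up to 2. Whether the number of libraries or depth limits precision more was not tested.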
